A study of Mus musculus with 6 samples.

Results

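The DEAD and DEAH box proteins are helicases of the Ddx and Dhx gene families, enzymes that use ATP to open short RNA helices or to pull proteins off RNA. Genes were taken by symbol, as Ddx or Dhx followed by a number, and the antiviral RNA sensors Ddx58 and Dhx58 were left out. Of 18193 genes named on the array, 49 met this rule, and 46 of these passed a limit on dim signal and were among the 10520 genes tested. The 46 comprised 31 of 34 Ddx genes and 15 of 15 Dhx genes. Ddx4, Ddx43 and Ddx60 lay under the limit. Ddx3y and Ddx19a had no probe set paired with 1 gene in the annotation used here.

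Most helicases of these families work at a fixed step in the life of an RNA. Nucleolar members remodel ribosomal RNA precursors and release small nucleolar RNAs, spliceosomal members drive the rearrangements of each splicing cycle, and cytoplasmic members help ribosomes scan leaders or help decay enzymes reach an mRNA. In growing cells the nucleolar members are needed in large amounts, because each ribosome is built through many helicase steps.

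The cells were Ba/F3-N, a mouse line derived from pro-B Ba/F3 cells by transformation with oncogenic NRAS-G12D, a mutant RAS GTPase. All 6 samples carried NRAS-G12D, including the controls. One group of 3 samples had been exposed to 1 µM N-arachidonoyl dopamine (NADA), a conjugate of arachidonic acid and dopamine, for 12 hours, and the other group of 3 had received vehicle for 12 hours. RNA of each sample was measured on 1 Affymetrix Mouse Genome 430 2.0 array. The labels give no culture, batch or date, so the p-values reflect variation among arrays that could be technical alone, and the number of arrays limits the precision. The samples are of 1 transformed line, so its responses stand for no other cell.

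Values are deposited intensities on a linear scale, compared as log2, and a log2 fold change is NADA minus vehicle given with its standard error from the fit (3 arrays in each group). A gene rose or fell here if the Benjamini-Hochberg adjusted p of limma, two-sided and over all 10520 genes, was under 0.05. These changes are relative to the bulk of genes, because the median of all genes tested was 0.01 with the values as deposited. The bacterial poly-A control RNAs, which the labelling protocol adds to each sample, averaged 8.72 ± 0.21 on the log2 scale on NADA arrays and 8.14 ± 0.01 on vehicle arrays (SD, n = 3 each, Trpn left out). Scaling each array to all poly-A controls, Trpn included, moved the median of all genes tested to -0.50. Scaling without Trpn, picked once the control values were known, moved it to -0.57. Values after poly-A scaling are those without Trpn unless Trpn is named. Scaling passes the spread of the poly-A controls among arrays to every gene alike. Adjusted p and calls after poly-A scaling share that error, so they are not separate tests of each gene. The log2 ratio of the 3' to the 5' probe set of Actb was 1.06 ± 0.05 on NADA arrays and 0.67 ± 0.04 on vehicle arrays (SD, n = 3 each). Both measures set the 3 NADA arrays apart from the 3 vehicle arrays, so their part in the results cannot be told apart from that of the treatment.

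Few B-lineage markers were detected: of 10 pro-B and B lymphoid markers named on the array, Cd79b and Igll1 passed the dim limit, and Pax5, Ebf1, Cd79a and Rag1 lay under it. The summed intensity of the 10 was 295.8 to 318.8 on NADA arrays and 267.1 to 275.7 on vehicle arrays. Of 5 erythroid markers named, 4 were tested and all 4 rose (median log2 fold change 1.12). The summed intensity of the 5 was 644.5 to 665.2 on NADA arrays and 260.7 to 284.1 on vehicle arrays. Rhag averaged 167.6 with NADA and 13.1 with vehicle, so it passed the dim limit of 39.01 only through the NADA arrays. Hba-a1 lay under the limit, at 17.7 with NADA and 16.5 with vehicle. Of 10 myeloid and mast cell markers, 5 were tested, 3 rose and 2 fell, with summed intensities of 9053.7 to 9344.4 on NADA arrays and 4122.2 to 4274.7 on vehicle arrays. The higher sum came mostly from Csf2rb (means of 3337.2 with NADA and 990 with vehicle) and Csf2rb2 (3573.9 and 702.5). Il3ra rose too, while Gata2 (1763.2 and 2041.3) and Cpa3 (249.4 and 293.7) fell. Of 5 T and NK cell markers 2 were tested and 1 rose, and of 8 fibroblast, epithelial and endothelial markers 2 were tested and 1 fell. The T and NK sums were 175.7 to 187.4 on NADA arrays and 169.4 to 182 on vehicle arrays, and the sums of the last list were 249.1 to 271.3 on NADA arrays and 272.8 to 280.8 on vehicle arrays. The part of these markers in the helicase results was not tested, and in bulk RNA fewer cells of a type and less RNA per cell cannot be told apart.

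After NADA the helicase genes were mostly lower relative to the bulk of genes, and the median was lowest for the nucleolar ones among the nucleolar, splicing and cytoplasmic roles. Of the 46 tested, 29 fell, 11 rose and 6 did not pass the test, with the values as deposited. Over all genes tested, 73.5% were called, 37.6% lower and 35.9% higher, against 63.0% lower and 23.9% higher among the helicases. The NADA and vehicle arrays did not overlap for 38 of the 46 helicases, a state that held for 76% of all genes. The median log2 fold change was -0.33 over the helicases, against 0.01 over all genes. At least 2-fold lower were 5 helicases (Ddx21, Ddx18, Dhx29, Ddx56 and Ddx27), where 6.06% of all genes were, and at least 2-fold higher was Dhx40, where 4.93% of all genes were. Scaled to the poly-A controls with Trpn, 41 helicases were called lower and 4 higher (Dhx40, Ddx17, Ddx25 and Dhx57), with a median of -0.83, where 73.3% of all genes were called lower and 9.15% higher. Without Trpn, 41 were called lower and Dhx40 alone higher, with a median of -0.91, where 76% of all genes were called lower and 7.04% higher.

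**Figure D1:**
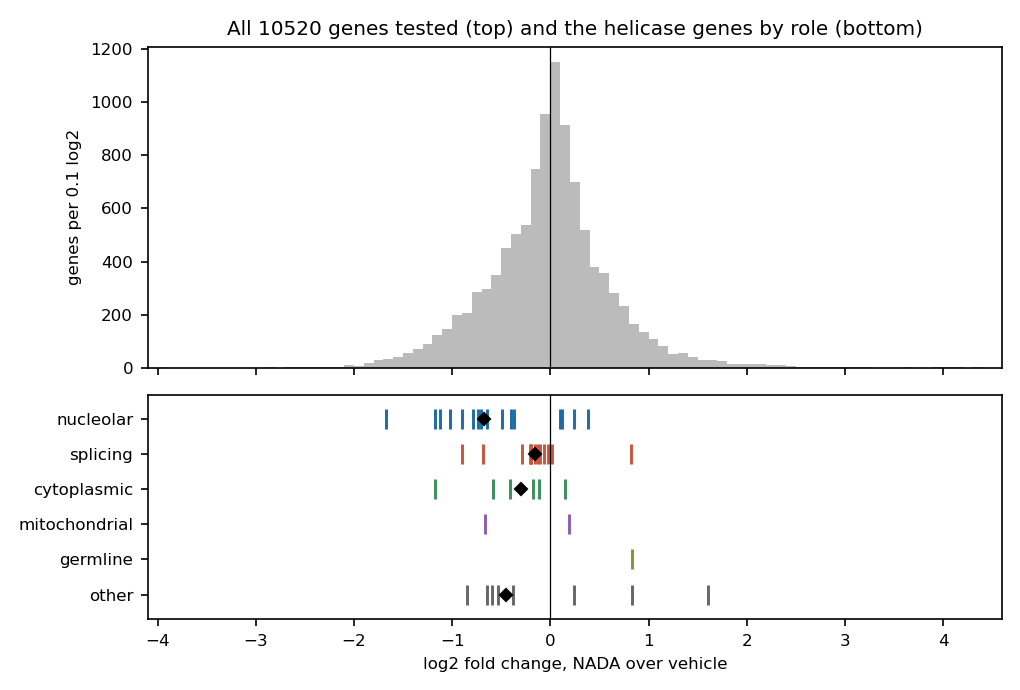
Log2 fold changes (NADA over vehicle) of all 10520 genes tested, as gene counts per bin of 0.1 log2 on the vertical axis (top), and of the 46 helicase genes by role (bottom), where each tick is 1 gene and each diamond the median of a role with at least 6 genes. The medians are -0.68 for nucleolar, -0.16 for splicing and -0.29 for cytoplasmic helicases with the values as deposited, against 0.01 for all genes, and -1.26, -0.74 and -0.87 after scaling to the poly-A controls, against -0.57.

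By role, falls were counted most often among the nucleolar helicases. Of all genes tested 37.6% fell and 35.9% rose with the values as deposited. Of 16 nucleolar helicases 12 fell and 4 rose, but 2 rose without NADA 1 or without any 1 vehicle array, and 3 without NADA 2. Their median was -0.68, and 9 of them were at least 1.5-fold lower, where 15.9% of all genes were. Of 13 splicing helicases 7 fell, Ddx17 rose and 5 did not pass, with a median of -0.16, and 2 were at least 1.5-fold lower. Of 6 cytoplasmic helicases 4 fell, Dhx36 rose and Ddx19b did not pass, with a median of -0.29. The 8 tested helicases of other roles had a median of -0.46, and 5 fell and 3 rose. The difference between roles is given as counts and medians and was not tested. Role lists, and the partner lists below, were chosen with earlier results of these data known. Poly-A scaling shifts all genes alike, so it leaves the distances between these medians as they are. With that scaling 15 of 16 nucleolar, 12 of 13 splicing and 6 of 6 cytoplasmic helicases were called lower, where 76% of all genes were (73.3% with Trpn). Of these 3 roles none had a member called higher without Trpn, and Ddx17 was called higher with Trpn.

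**Figure D2:**
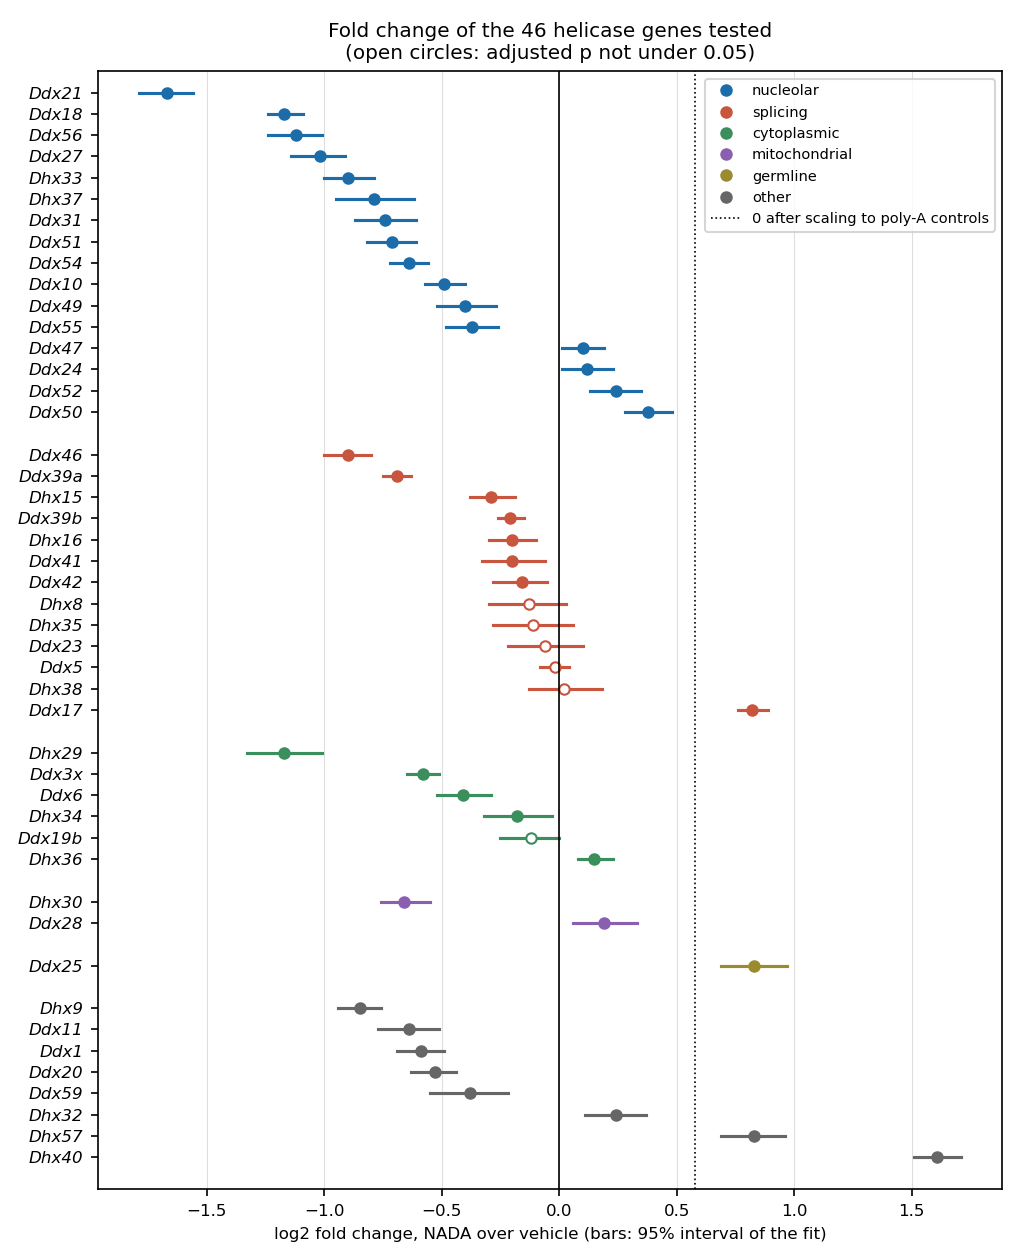
Log2 fold change (NADA over vehicle) of each of the 46 helicase genes tested, grouped by role, with the 95% interval of the fit, where open circles did not pass the test. The solid line is 0 for the deposited values and the dotted line is where 0 lies after scaling to the poly-A controls, and Dhx40 at 1.61 is the 1 gene called higher on both, while Ddx17, Ddx25 and Dhx57 are also called higher when Trpn is kept among the controls.

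Ddx21 had the lowest fold change of all the helicases with the values as deposited. Ddx21 is a nucleolar DEAD box protein that acts in the transcription and processing of ribosomal RNA. Its intensity was 464.5, 503.9 and 555.2 on the NADA arrays, against 1527.3, 1668.7 and 1655.4 on the vehicle arrays. The highest NADA array lay far under the lowest vehicle array. The log2 fold change was -1.67 ± 0.06, which is 3.19-fold lower (limma adjusted p = 1.94e-13), and ranked 90 from the bottom among all 10520 genes. A second probe set of Ddx21 gave -1.43.

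Ddx18, the homologue of yeast Has1, acts in assembly of both ribosomal subunits. Ddx18 had intensities of 526.2, 516.2 and 520.2 with NADA, against 1165.5, 1164.4 and 1177.2 with vehicle, a log2 fold change of -1.17 ± 0.04 (limma adjusted p = 8.26e-14). The spread within either group was about 0.01 on the log2 scale. Other passing probe sets of Ddx18 gave -1.16 and -0.62. Ddx56, a helicase of large subunit assembly, had intensities of 143.7, 156.5 and 162.2 with NADA, against 331, 334.3 and 340.8 with vehicle, a change of -1.12 ± 0.06 (limma adjusted p = 2.07e-11). Ddx27, which acts in processing of the ribosomal RNA precursor, had 150.5, 143.7 and 147.7 with NADA, against 300.8, 287.6 and 310.7 with vehicle, a change of -1.02 ± 0.05 (limma adjusted p = 3.59e-11). In these 3 genes every NADA array lay under every vehicle array.

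A further 8 nucleolar helicases fell by less, with log2 fold changes of -0.90 to -0.37, and none of them had overlapping groups. Dhx33, which acts in RNA polymerase I transcription, was lowest of these at -0.90 ± 0.05 (limma adjusted p = 9.71e-11). A second probe set of Dhx33 gave -0.52. Dhx37, whose yeast homologue Dhr1 releases U3 small nucleolar RNA from the precursor, had the dimmest signal of all the tested helicases. Its intensity was 41.7, 40.8 and 44.8 with NADA, just above the dim limit of 39.01, against 74, 69.1 and 76.4 with vehicle (log2 fold change -0.79 ± 0.08, limma adjusted p = 1.35e-07). Ddx31 (-0.74), Ddx51 (-0.71) and Ddx54 (-0.64), the counterparts of large subunit helicases of yeast, followed. Ddx10 (-0.49) and Ddx49 (-0.40), counterparts of small subunit helicases of yeast, and Ddx55 (-0.37), a large subunit helicase, were the least lowered. A second probe set of Ddx55 stood at 0.04 and was not called.

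The 4 nucleolar helicases that rose did so by less, and all 4 had negative fold changes after scaling to the poly-A controls. Ddx50, the paralogue of Ddx21, had intensities of 941.6, 931 and 847.9 with NADA, against 714.9, 700.6 and 672.4 with vehicle. That is a log2 fold change of 0.38 ± 0.05 (limma adjusted p = 1.1e-06), and -0.20 after poly-A scaling (adjusted p = 0.119). The groups did not overlap, but the other 2 passing probe sets of Ddx50 gave -0.07 and -0.11 and were not called. Ddx52, the counterpart of yeast Rok1, had 419.4, 399.1 and 444.3 with NADA, against 372.2, 356.5 and 342.7 with vehicle (0.24 ± 0.05, limma adjusted p = 5.51e-04). Its other probe set was called lower, at -0.24, so the direction of Ddx52 depends on the probe set, and after poly-A scaling it stood at -0.34. Ddx47 and Ddx24 lay nearest to 0 of the nucleolar helicases. Ddx47, a small subunit helicase, had 711.8, 658.4 and 674.6 with NADA, against 643.1, 627.7 and 634.6 with vehicle (0.10 ± 0.04, limma adjusted p = 0.0361). Ddx24, a large subunit helicase, had 477.1, 472.4 and 419.9 with NADA, against 431.8, 409.4 and 417.3 with vehicle, and its groups overlapped (0.12 ± 0.05, limma adjusted p = 0.0492). After poly-A scaling Ddx47 stood at -0.48 and Ddx24 at -0.46.

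**Figure D3:**
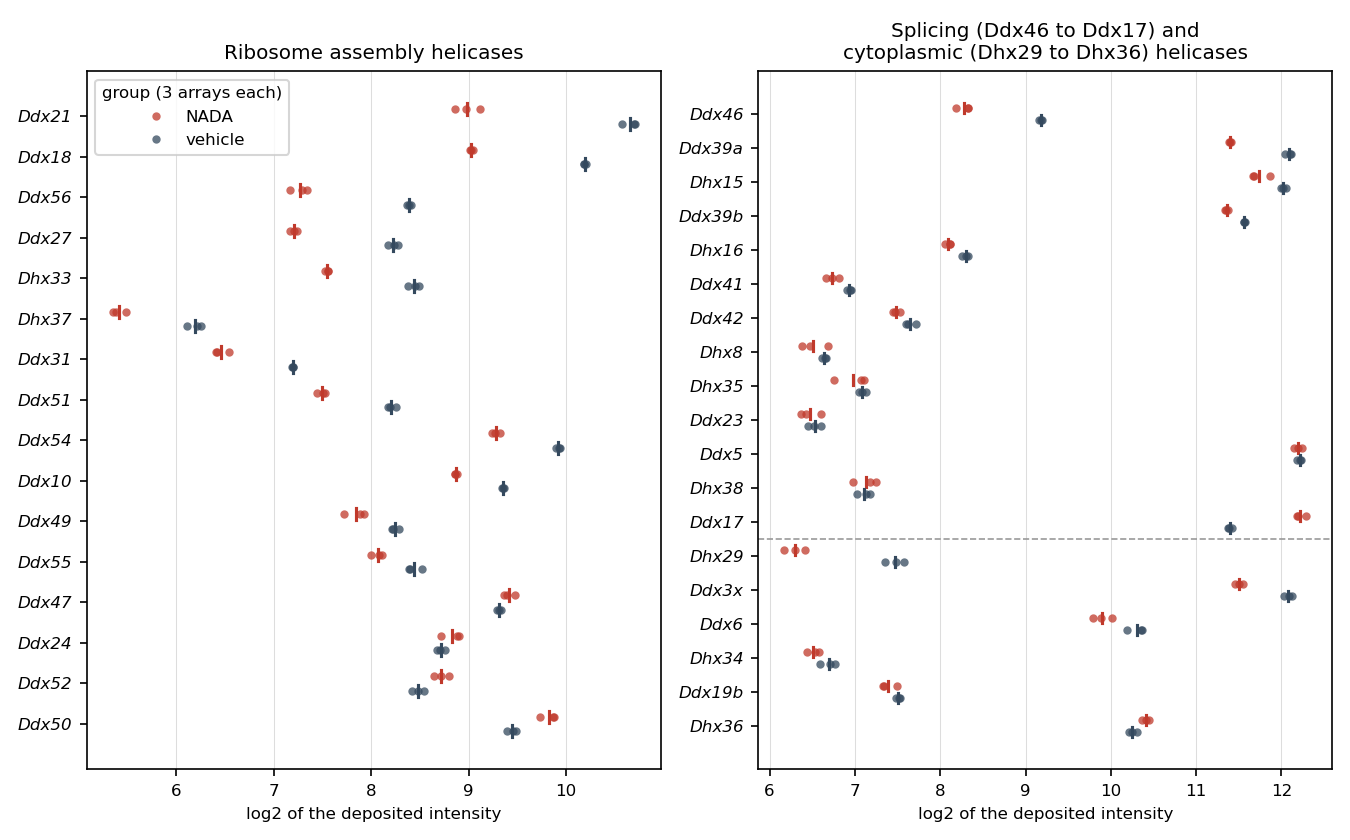
Log2 of the deposited intensity on each of the 6 arrays for the nucleolar (left), splicing and cytoplasmic (right, split by the dashed line) helicases, with NADA arrays above vehicle arrays, points for arrays and bars for group means (3 arrays each). The groups of Ddx21 (8.98 and 10.66 on average) lie far apart, those of Ddx5 (12.19 and 12.21) overlap, and Ddx17 is higher in NADA (12.22 and 11.39).

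Ddx21 and Ddx50 are neighbours on mouse chromosome 10, with 0 genes between them in the RefSeq gene table. Their promoters are shown because the brightest probe sets of these adjacent paralogues were called in opposite directions with the values as deposited, though 2 of the 3 passing probe sets of Ddx50 were not called, and that of Dhx40 because it had the highest fold change of the helicases. Each run is the 250 bases before the gene's start (the one farthest upstream in the table), 5' to 3' on the strand of the gene, from RefSeq on GRCm38.p6. Capitals mark matches, on either strand, to the E-box CACGTG, the GC box GGGCGG and the CCAAT box CCAAT, none of which overlap each other in these runs.
Ddx21, chr10:62602299-62602548, minus strand: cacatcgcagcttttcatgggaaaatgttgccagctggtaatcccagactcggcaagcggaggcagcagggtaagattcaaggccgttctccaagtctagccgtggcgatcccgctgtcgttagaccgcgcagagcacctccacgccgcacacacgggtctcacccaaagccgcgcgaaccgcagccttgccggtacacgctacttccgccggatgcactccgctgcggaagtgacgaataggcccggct
Ddx50, chr10:62651219-62651468, minus strand: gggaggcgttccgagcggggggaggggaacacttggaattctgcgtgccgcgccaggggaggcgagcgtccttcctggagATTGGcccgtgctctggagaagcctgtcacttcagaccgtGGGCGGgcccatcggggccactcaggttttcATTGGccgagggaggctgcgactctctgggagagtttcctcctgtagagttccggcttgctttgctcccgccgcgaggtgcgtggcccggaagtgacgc
Dhx40, chr11:86807661-86807910, minus strand: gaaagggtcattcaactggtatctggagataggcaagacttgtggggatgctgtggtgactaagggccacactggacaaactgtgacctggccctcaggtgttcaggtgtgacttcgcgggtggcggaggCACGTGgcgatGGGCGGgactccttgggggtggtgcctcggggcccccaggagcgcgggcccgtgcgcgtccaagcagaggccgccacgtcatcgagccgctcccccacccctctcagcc

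The Ddx21 run holds none of the 3 motifs, has a GC content of 61.6% and contains 25 CpG dinucleotides. The Ddx50 run has a GC content of 66.0%, 21 CpG, a GC box that begins 130 bases before the start and CCAAT boxes at 170 and 99 bases, read on the opposite strand as ATTGG. The Dhx40 run has a GC content of 65.6%, 16 CpG, an E-box at 120 bases and a GC box at 109 bases before the start. The median promoter of the 27025 in the table had a GC content of 52.0% and 6 CpG. All 3 helicase runs were above that median in both measures.

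Of the 49 helicase genes 44 had a promoter in the table. The E-box stood in 4 of the 44, and in 6.0% of all 27025 promoters. It stood in 1 of 16 nucleolar promoters, in 1 of the 26 whose gene fell and in 1 of the 11 whose gene rose. The GC box stood in 27 of the 44 and in 33.0% of all promoters, and in 11 of 16 nucleolar promoters, 18 of the 26 whose gene fell and 6 of the 11 whose gene rose. The CCAAT box stood in 21 of the 44 and in 34.5% of all promoters, and in 9 of 16 nucleolar promoters, 9 of the 26 and 6 of the 11. A match describes letters in this window only. The 27025 promoters were not limited to genes that passed the dim limit. The shares, and the medians of GC content and CpG, are therefore not matched for expression.

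Ribosome assembly genes other than helicases, a list chosen with earlier results of these data known, were nearly all lower. Of 49 tested, 48 fell and Gnl2 rose with the values as deposited. They had a median log2 fold change of -1.08, and 26 were at least 2-fold lower. Of all genes tested 37.6% fell and 6.06% were at least 2-fold lower. Nop56, a core protein of box C/D small nucleolar RNPs, had intensities of 1023.2, 1094 and 1072.8 with NADA, against 3626.8, 3716.9 and 3545.2 with vehicle (-1.77 ± 0.03). Rrp1b, a nucleolar protein, changed by -2.03 ± 0.05 and Emg1, an rRNA methyltransferase, by -1.28 ± 0.03. Gnl2, a nucleolar GTPase of large subunit assembly, stood at 0.18 ± 0.04 with the values as deposited and at -0.40 after poly-A scaling, where all 49 were called lower.

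Among the splicing helicases Ddx46 fell the most and Ddx17 was the 1 that rose with the values as deposited. Ddx46, the counterpart of yeast Prp5, acts when U2 snRNP joins the branch site. Its intensity was 319.5, 320.1 and 290.7 with NADA, against 587.5, 579.4 and 569.2 with vehicle (log2 fold change -0.90 ± 0.05, limma adjusted p = 5.37e-11). All 5 probe sets of Ddx46 lay between -0.90 and -0.65. Ddx17, also called p72, is a splicing and transcription cofactor that pairs with Ddx5. Ddx17 had intensities of 4636.8, 4679.3 and 4996.8 with NADA, against 2661, 2736.3 and 2680.3 with vehicle, with no overlap. Its log2 fold change was 0.82 ± 0.03 (limma adjusted p = 1.02e-12), its other probe sets gave 0.85 and 0.53, and after poly-A scaling it stood at 0.32 with Trpn (adjusted p = 0.00826) and 0.25 without (adjusted p = 0.0741).

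Ddx5, also called p68, lay near 0 relative to the bulk of genes and did not pass the test. Ddx5 had intensities of 4669, 4543.9 and 4825.6 with NADA, against 4659.7, 4762.5 and 4813.6 with vehicle (log2 fold change -0.02, 95% interval -0.08 to 0.04, limma adjusted p = 0.533). The groups overlapped, and its 5 passing probe sets ran from -0.16 to 0.26 with calls in both directions. Dhx38, the counterpart of yeast Prp16, also lay near 0. It had 151.6, 144.6 and 126.2 with NADA, against 140, 130.2 and 144.1 with vehicle (0.02, 95% interval -0.13 to 0.18, limma adjusted p = 0.774), and stood at -0.55 after poly-A scaling.

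Ddx39a and Ddx39b, paralogues that load export factors on spliced mRNA, fell to different degrees. Ddx39a had intensities of 2676.9, 2696.3 and 2722.9 with NADA, against 4217.8, 4429.1 and 4379.6 with vehicle (-0.69 ± 0.03, limma adjusted p = 2.46e-12). Ddx39b had 2661.8, 2596.3 and 2607.5 with NADA, against 3024.1, 3034.9 and 3014.9 with vehicle (-0.21 ± 0.03, limma adjusted p = 4.24e-06). Neither gene's groups overlapped, and 1 of the 4 probe sets of Ddx39b was called higher, at 0.41. Dhx15, the counterpart of yeast Prp43, which takes apart spent spliceosomes, fell by 0.29 on the log2 scale, and its other probe set gave -0.56. Dhx16, Ddx41 and Ddx42 fell by 0.20, 0.20 and 0.16. Dhx8, which releases spliced mRNA, Dhx35 and Ddx23 did not pass, with fold changes of -0.13 (95% interval -0.30 to 0.03), -0.11 (-0.28 to 0.06) and -0.06 (-0.22 to 0.10).

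Among 38 other spliceosome genes tested, 60.5% fell (23) and 31.6% rose (12), against 37.6% and 35.9% of all genes. Their median was -0.24. Snrpa1, a U2 snRNP protein, changed by -1.46 ± 0.05, Prpf31, a tri-snRNP protein, by -1.42 ± 0.05 and Usp39, also of the tri-snRNP, by -1.05 ± 0.03. Slu7, a second-step factor, stood at 0.84 ± 0.04 and Syf2, a protein of the activated spliceosome, at 0.58 ± 0.04. Prpf6, a tri-snRNP protein, stood at 0.49 ± 0.05. After poly-A scaling 33 of the 38 were called lower and 1 higher, and Prpf6 stood at -0.09.

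Of the cytoplasmic helicases Dhx29 fell the most. Dhx29 binds the small ribosomal subunit and helps scanning through structured leaders. Its intensity was 85.5, 78.6 and 72.2 with NADA, against 190.3, 178.6 and 163.8 with vehicle (log2 fold change -1.17 ± 0.08, 2.25-fold lower, limma adjusted p = 5.62e-10). Ddx3x, which also acts in translation of mRNAs with structured leaders, had 2998.7, 2898.5 and 2806.4 with NADA, against 4451.3, 4192.3 and 4346 with vehicle (-0.58 ± 0.03, limma adjusted p = 9.35e-11). In both genes all NADA arrays lay under all vehicle arrays.

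Ddx6, a decapping and translational repression factor of P-bodies, had intensities of 1030.8, 944.2 and 889.3 with NADA, against 1316.5, 1169.8 and 1305.6 with vehicle (-0.41 ± 0.05, limma adjusted p = 4.12e-06). Dhx34, a factor of nonsense-mediated decay, fell by 0.18 on the log2 scale. Ddx19b, which remodels mRNPs at the nuclear pore, had 161.2, 161.7 and 179.9 with NADA, against 182.8, 179.3 and 184.9 with vehicle, with overlap of 1 NADA array (-0.12, 95% interval -0.25 to 0.00, limma adjusted p = 0.0686). Dhx36, which unwinds G-quadruplexes, had 1392.4, 1358 and 1322.4 with NADA, against 1264.2, 1214 and 1182.4 with vehicle (0.15 ± 0.04, limma adjusted p = 0.00124). The dimmest probe set of Dhx36 was called lower, at -0.54, and after poly-A scaling Dhx36 stood at -0.42.

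The eIF4A helicases, DEAD box proteins that carry another symbol and so stand outside the 49, are shown for comparison. Eif4a1, the main translation initiation helicase, had intensities of 3690.7, 3865.4 and 3839.3 with NADA, against 6984.8, 6902.5 and 6910.7 with vehicle (-0.87 ± 0.03, limma adjusted p = 6.86e-14). Eif4a2 had 2782.6, 2836.7 and 2835.2 with NADA, against 2931.5, 2958.4 and 2997.7 with vehicle (-0.07 ± 0.03, limma adjusted p = 0.0273). The groups overlapped for neither gene. The call of Eif4a2 was lost with quantile normalization (-0.03, adjusted p = 0.382), without the intensity trend (adjusted p = 0.115) and without NADA 1, NADA 2, vehicle 2 or vehicle 3 (adjusted p of 0.0551 to 0.105). Eif4a3, the exon junction helicase, averaged 13.9 with NADA and 14.4 with vehicle on its brightest probe set paired with 1 gene. That lay under the dim limit, so Eif4a3 was not tested, and a dim probe set does not show that a gene is silent.

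Partners of the cytoplasmic helicases were tested for 16 genes, of which 56.2% fell (9) and 25% rose (4) as deposited, against 37.6% and 35.9% of all genes (median -0.16). Eif4e, the cap-binding protein, averaged 971.3 with NADA and 2159.2 with vehicle (-1.15 ± 0.04). Pdcd4, which binds and inhibits eIF4A, averaged 3397.8 with NADA and 1019.4 with vehicle (1.74 ± 0.03, limma adjusted p = 4.45e-16). Nup214, the pore protein that docks Ddx19, changed by -0.66 and Dcp2, the decapping enzyme, by -0.51. Xrn1, the cytoplasmic exonuclease, stood at 0.56 and Lsm14a, a P-body partner of Ddx6, at 0.25. After poly-A scaling 13 of the 16 were called lower and 1 higher, with Lsm14a at -0.33 and Xrn1 at -0.02.

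Of the mitochondrial helicases, Dhx30, which acts in assembly of the mitochondrial ribosome, had intensities of 191.7, 196.9 and 203.1 with NADA, against 318.6, 310 and 305.6 with vehicle (-0.66 ± 0.05, limma adjusted p = 3.87e-09). Ddx28, a large subunit assembly factor of that ribosome, had 190.9, 197.8 and 173.8 with NADA, against 174, 159 and 158.7 with vehicle (0.19 ± 0.06, limma adjusted p = 0.0114). The lowest NADA array of Ddx28 lay just under the highest vehicle array, and the gene stood at -0.38 after poly-A scaling.

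Among the germline helicases Ddx25, known for regulating translation in developing sperm cells, was the 1 that passed the dim limit. Ddx25 had intensities of 146.2, 157.2 and 162.5 with NADA, against 83.9, 91.8 and 86.7 with vehicle, with no overlap (0.83 ± 0.07, limma adjusted p = 7.31e-09, and after poly-A scaling 0.32 with Trpn, adjusted p = 0.0078, and 0.25 without, adjusted p = 0.0651). Ddx4, the germ cell marker Vasa, had 5.1, 5.98 and 6.14 with NADA, against 3.49, 3.34 and 3.33 with vehicle. Ddx43 had 7.85, 7.02 and 7.07 with NADA, against 7.55, 6.14 and 7.57 with vehicle. Both lie among the dimmest signals on the array and were not tested.

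Dhx40 had the highest fold change of the helicases. Its function is little described. Dhx40 had intensities of 1199.8, 1121.7 and 1052.5 with NADA, against 370, 373.8 and 361.8 with vehicle. The lowest NADA array lay far above the highest vehicle array. The log2 fold change was 1.61 ± 0.05, which is 3.05-fold higher (limma adjusted p = 4.81e-14), and ranked 150 from the top among all 10520 genes. After poly-A scaling it stood at 1.03. Dhx40 rests on 1 probe set.

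Dhx57 had intensities of 177, 162.8 and 160.3 with NADA, against 97.2, 90.5 and 94.1 with vehicle (0.83 ± 0.06, limma adjusted p = 4.7e-09, and after poly-A scaling 0.32 with Trpn, adjusted p = 0.00714, and 0.25 without, adjusted p = 0.063). Dhx9, also called RNA helicase A, unwinds RNA duplexes and takes part in transcription. Dhx9 had 1017.3, 1010.7 and 1144.4 with NADA, against 1852.8, 1943.4 and 1912.4 with vehicle (-0.85 ± 0.04, limma adjusted p = 4.54e-11), and its other passing probe set gave -1.33. Ddx1, a member of the tRNA ligase complex, had 1051, 1071.7 and 943.3 with NADA, against 1466.4, 1525.4 and 1610.3 with vehicle (-0.59 ± 0.05, limma adjusted p = 1.17e-08). Dhx57 was higher and Dhx9 and Ddx1 were lower on every NADA array than on any vehicle array. Dhx57 rests on 1 probe set, of a type that can bind several transcripts.

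Ddx11, a DNA helicase of sister chromatid cohesion, fell by 0.64 on the log2 scale. Ddx20, the Gemin3 subunit of the SMN complex that assembles snRNPs, fell by 0.53. Ddx59 had intensities of 91.4, 90.7 and 79.2 with NADA, against 105.6, 122.6 and 112.4 with vehicle (-0.38 ± 0.08, limma adjusted p = 2.87e-04). Dhx32 had 211.7, 194.8 and 183.3 with NADA, against 170.1, 166.9 and 160.7 with vehicle (0.24 ± 0.06, limma adjusted p = 0.00191, and -0.33 after poly-A scaling). Ddx60, an interferon-inducible antiviral factor, had 4.71, 6.11 and 4.99 with NADA, against 4.43, 4.53 and 4.71 with vehicle. Both probe sets of Ddx60 lay under the dim limit, so it was not tested.

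A ratio of paralogues within an array does not depend on how that array is scaled, and each of the 4 pairs changed without overlap of the groups. The log2 ratio of Ddx21 to Ddx50 was -1.02, -0.89 and -0.61 on NADA arrays, against 1.1, 1.25 and 1.3 on vehicle arrays, a change of -2.05. The ratio of Ddx5 to Ddx17 changed by -0.85 (SD 0.03 in NADA and 0.02 in vehicle), that of Ddx39a to Ddx39b by -0.48 (0.03 and 0.04) and that of Eif4a1 to Eif4a2 by -0.80 (0.02 and 0.02). The levels of different probe sets cannot be set against each other, so the sign of a ratio on 1 array has no meaning. An exact two-sided permutation test gave p = 0.1 for each pair, the smallest that 3 against 3 arrays allow, and 0.1 after adjustment over the 4 pairs. With the other probe sets of Ddx50 at -0.07 and -0.11, the change of its ratio with Ddx21 would be smaller. Changes of the Ddx39a to Ddx39b and Ddx5 to Ddx17 ratios depend on the probe set as well. Passing probe sets ran from -0.94 to -0.50 for Ddx39a and from -0.36 to 0.41 for Ddx39b. They ran from -0.16 to 0.26 for Ddx5 and from 0.53 to 0.85 for Ddx17.

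**Figure D4:**
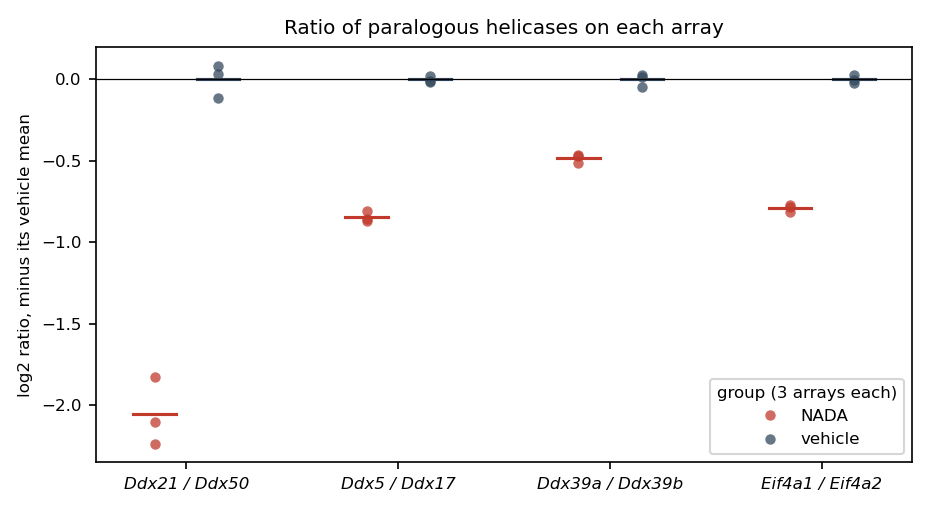
Log2 ratio of each of 4 paralogue pairs on each array, minus the mean ratio of the vehicle arrays, with NADA left of vehicle, points for arrays and bars for means (3 arrays each). All NADA points lie under all vehicle points, with mean changes of -2.05, -0.85, -0.48 and -0.80 from left to right.

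Of the 46 tested helicases 27 had several passing probe sets, and for 17 of these all probe sets were called in the same direction, in a fit over all probe sets other than controls, dim ones included. Ddx39b, Ddx5, Ddx52 and Dhx36 had probe sets called in both directions. Ddx54, Ddx39a, Ddx39b, Ddx17, Dhx30, Dhx38, Dhx57 and Dhx9 were read from probe sets of the types x or s, which can bind several transcripts. With the mean of all passing probe sets in place of the brightest, Ddx50 stood at 0.07 (adjusted p = 0.273) and Ddx39b at -0.10 (adjusted p = 0.0548), so both lost their call, as did Ddx52 at 0.00 (adjusted p = 0.953), and Ddx19b at -0.19 (adjusted p = 0.023) gained one. In the same setting Dhx36 was called lower, at -0.09 (adjusted p = 0.0399).

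**Figure D5:**
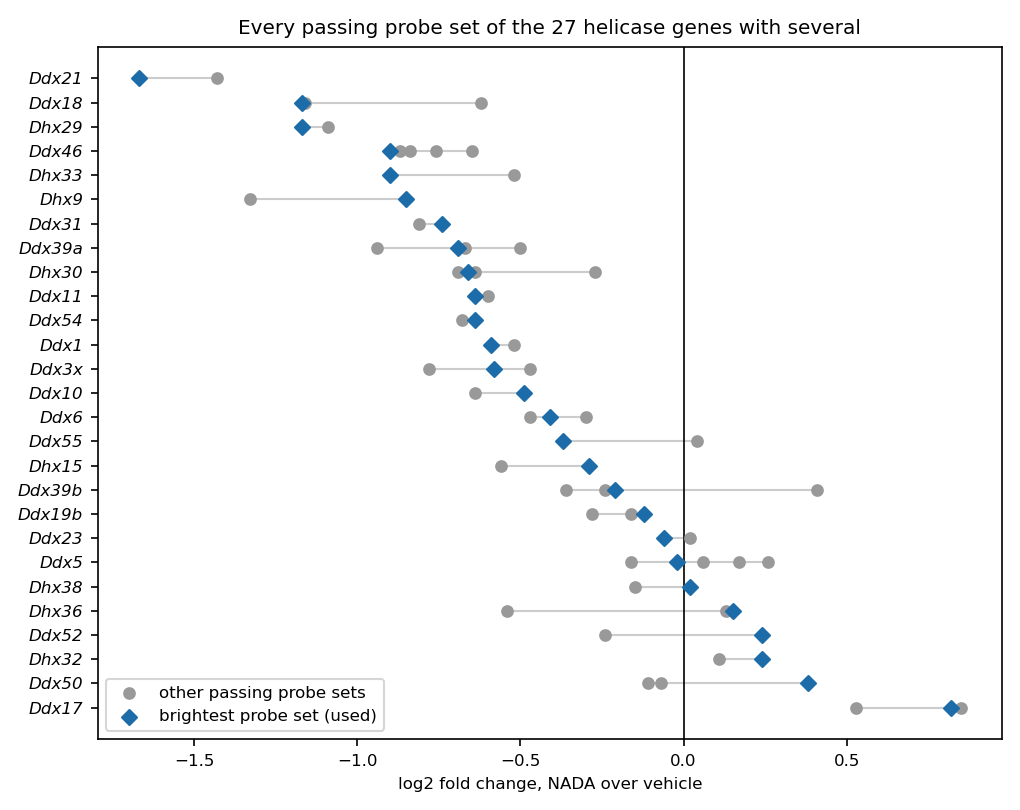
Log2 fold change (NADA over vehicle) of every passing probe set of the 27 helicase genes with several, where the blue diamond is the brightest, which was used, and grey circles are the others. Most genes keep to 1 side of 0, as Ddx46 does from -0.90 to -0.65, while Ddx39b runs from -0.36 to 0.41 and Dhx36 from -0.54 to 0.15.

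Leaving out each array in turn kept the calls of 39 of the 46 helicases. Ddx24 lost its call without NADA 1, NADA 2, vehicle 1, vehicle 2 or vehicle 3, with adjusted p of 0.0518 to 0.177. Ddx47 lost its call without NADA 1, vehicle 1, vehicle 2 or vehicle 3 (adjusted p of 0.0564 to 0.158). Dhx34 lost its call without NADA 2, NADA 3, vehicle 1 or vehicle 2 (adjusted p of 0.054 to 0.124). Ddx42 lost its call without vehicle 3 (-0.13, adjusted p = 0.0822) and Ddx28 without NADA 2 (0.15, adjusted p = 0.0637). Dhx8 was called lower without NADA 2 (-0.22, adjusted p = 0.0156) and Ddx19b without NADA 3 (-0.18, adjusted p = 0.00791). All of these had small fold changes, and the number of nucleolar helicases called lower was 12 in every case.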

How the data were processed

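RNA of 6 samples was measured on Affymetrix Mouse Genome 430 2.0 arrays. The authors deposited intensities on a linear scale, 2.19 to 20113. The submitters' processing notes name MAS5 and RMA without version or role. Array medians ran from 38.92 to 39.11 in NADA and from 37.95 to 38.13 in vehicle samples, so the deposited intensities were treated as normalized. Log2 was taken with nothing added. Detection calls were not used here.

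Control probe sets (64 of 45101) were left out. Probe sets with a mean under 39.01, the median of the others, were left out as dim. The brightest of the 18975 remaining probe sets with 1 gene in the platform annotation was kept per gene. A gene can pass through the group where it is high. Limma 3.58.1 (lmFit, eBayes with intensity trend, R 4.3.3) was fitted over 10520 genes with group as the only term. Correlations across genes were 0.9972 to 0.9984 within a group and 0.9356 to 0.939 between groups. Plots were drawn with matplotlib 3.10.9. Gene IDs of 49 of 49 helicases matched the RefSeq table (GRCm38.p6).

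The helicases, role lists and partner lists were chosen with earlier results of these data known. All helicases may be named. Values on every array are given for the 4 smallest p and the 2 changes nearest to 0 of each role and for fixed paralogues, and 3 partners per list and direction by smallest p. Values of other helicases were added after they were seen. Markers were named to check the cell type. Alternatives covered normalization, offset and floor, dim filter, trend, array weights, probe set choice, thresholds, replicate block, single arrays and poly-A scaling. Poly-A scaling without Trpn, whose probe sets lay near the lowest intensities, was added after seeing the data. The main fit was tested on simulated arrays with independent errors, in which far fewer genes changed than were called here. The simulation therefore does not test the calls of these data.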

Additional observations from a re-analysis of the deposited data

How the results depend on the processing

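Poly-A scaling turned more helicase directions than any other setting run; values are given with Trpn, then without. Genes called higher numbered 963 and 741 and lower 7707 and 7992, and helicases called higher 4 and 1. Nucleolar and cytoplasmic helicases and ribosome assembly partners called higher numbered 0 in both, splicing helicases called higher 0 without Trpn, splicing helicases called lower 12 and 12, and spliceosome and cytoplasmic partners called higher 1 and 1. Turned in sign were Ddx47 (-0.41 and -0.48), Ddx24 (-0.39 and -0.46), Ddx52 (-0.27 and -0.34), Ddx50 (-0.13 and -0.20), Dhx38 (-0.48 and -0.55), Dhx36 (-0.35 and -0.42), Ddx28 (-0.31 and -0.38), Dhx32 (-0.26 and -0.33), Gnl2 (-0.33 and -0.40), Prpf6 (-0.02 and -0.09), Lsm14a (-0.26 and -0.33), and without Trpn Syf2 (0.00) and Xrn1 (-0.02). A common shift of all genes by the controls makes these changes by construction. A minimum of 1.5-fold left 1378 genes higher and 1669 lower, 4 helicases higher and 16 lower, 0 nucleolar higher, 2 splicing lower, 0 cytoplasmic higher and 1 lower, 0 ribosome assembly partners higher, 1 spliceosome partner higher and 13 lower, and 1 cytoplasmic partner higher and 2 lower. Nucleolar helicases called higher numbered 2 with median centring, no dim filter, no intensity trend, the mean of probe sets or an adjusted p under 0.01, and 2 to 4 without single arrays; the cause was not tested. The mean of probe sets left 0 cytoplasmic helicases higher, with Dhx36 at -0.09 and Ddx52 at 0.00. Without single arrays 9 to 11 helicases were higher and 28 to 29 lower. Over 10 other settings (quantile normalization, centring, adding 32, a floor of 50, no dim filter, a 70th percentile filter, no trend, weights, probe set types, block), 442 of 452 helicase values kept direction and call, 8 lost and 2 gained a call, and 0 turned. Replicate numbers did not pair the arrays (correlations of deviations 0.16, -0.10 and 0.02 for same numbers), and with the replicate block 29 helicases were lower and 11 higher, with no helicase's call changed. Dim signal limits Ddx4, Ddx43 and Ddx60.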
